A study of Mus musculus with 7 samples.

Results

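Sertoli cells are the somatic nurse cells of the seminiferous tubule, and 9 genes that mark or govern them are described here in testes with and without *Meioc*, a gene expressed in germ cells that are entering meiosis. The genes were chosen by name as regulators of Sertoli cell identity (*Sox9*, *Sox8*, *Wt1*, *Gata1*, *Gata4* and *Nr5a1*), as the receptor for follicle-stimulating hormone (FSH; *Fshr*) and as hormone-dependent readouts of the cell (*Rhox5* and *Rhox8*). They are 9 of 21928 protein-coding genes in the tables, and all 9 were among the 13630 genes that passed the filter on low values.

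Total RNA was sequenced from the testes of 4 wild-type and 3 *Meioc*-null mouse pups. Each library came from 1.5 testes of a single pup, so the replicates are separate animals. Every pup, of either genotype, was on a C57BL/6N background and was given WIN 18,446, which blocks retinoic acid synthesis, at 0.1 mg per gram of body weight daily from postnatal day 2 to day 8, and then retinoic acid at 0.0125 mg per gram on day 9. Testes were taken 6.75 days after the retinoic acid, when the synchronized germ cells were enriched for preleptotene spermatocytes, the cells about to enter meiosis. The null group carried *Meioc tm1.1Dpc*, and the tissue was the whole testis, so Sertoli cells were one of several cell types in each library. In such bulk tissue, fewer Sertoli cells and less RNA of a gene per Sertoli cell cannot be told apart.

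A Sertoli cell is specified in the fetal gonad when SRY turns on *Sox9*, whose protein, with the related SOX8, maintains the male supporting-cell fate. WT1, GATA4 and the nuclear receptor NR5A1 (steroidogenic factor 1) act in the gonad before that step and in Sertoli cells after it. In the postnatal testis the cell responds to FSH through FSHR, a receptor that signals by cyclic AMP, and to testosterone. *Rhox5* and *Rhox8* are homeobox genes of the X-linked *Rhox* cluster, and both depend on androgen in Sertoli cells.

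The sequences that follow are shown because they define which RNA was counted for *Wt1* and where the quantified transcripts of *Fshr* and *Sox8* begin. *Wt1* (ENSMUSG00000016458.14, GRCm38 chr2:105126529-105173616, plus strand) is counted on 4 transcripts that differ in their first exon and in 2 alternatively spliced stretches of coding sequence. Wt1-201 and Wt1-202 begin with a first exon at chr2:105130883-105131152. The 2 remaining transcripts begin further upstream, with first exons that both end at chr2:105127442. A stretch of 9 bases at the 3′ end of an exon, at chr2:105170010-105170018, is kept when the more downstream splice donor is used; it encodes the KTS insertion between zinc fingers that separates the +KTS and -KTS forms of the protein. In the lines below, its bases are in capitals in Wt1-201, which holds them, and Wt1-202 is the same stretch of mRNA without them.
Wt1-201: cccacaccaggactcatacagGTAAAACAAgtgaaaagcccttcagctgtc
Wt1-202: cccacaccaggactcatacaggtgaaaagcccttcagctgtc
The other stretch is a cassette exon of 51 bases at chr2:105144142-105144192, present in Wt1-202 and the 2 remaining transcripts, which also hold the donor bases, and absent from Wt1-201.
Wt1 cassette exon: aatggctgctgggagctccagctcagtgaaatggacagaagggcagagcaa
The next sequences are the 250 bases upstream of the RefSeq start sites (GRCm38.p6) of *Fshr* and *Sox8*, each printed 5′ to 3′ on the strand of the gene (minus), at chr17:89200676-89200925 and chr17:25570687-25570936. Each start site is 0 bases from that of the quantified transcript, Fshr-201 or Sox8-201. Capitals mark matches, searched on both strands, to GATAA, the core recognized by GATA factors, and to CACGTG. The latter is 1 form of the E-box motif, and other forms were not searched.
Fshr upstream: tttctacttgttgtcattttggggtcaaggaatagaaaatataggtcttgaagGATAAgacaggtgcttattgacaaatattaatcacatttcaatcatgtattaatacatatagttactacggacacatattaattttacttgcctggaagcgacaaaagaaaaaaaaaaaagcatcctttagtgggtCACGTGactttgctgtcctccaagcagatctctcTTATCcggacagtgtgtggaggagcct
Sox8 upstream: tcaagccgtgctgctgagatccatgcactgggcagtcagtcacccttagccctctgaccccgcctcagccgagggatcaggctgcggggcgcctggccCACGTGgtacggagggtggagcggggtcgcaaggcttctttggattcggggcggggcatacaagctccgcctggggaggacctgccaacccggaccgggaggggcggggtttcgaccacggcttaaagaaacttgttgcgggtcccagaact
In windows of 250 bases before to 50 bases after the start, GATAA occurred in 25.4% and CACGTG in 7.15% of 32851 RefSeq promoters. The *Fshr* window held GATAA 2 times, on opposite strands, and CACGTG 1 time, and the *Sox8* window held CACGTG 1 time. AAGGTCA, the core bound by NR5A1, ACAAT, a core bound by SOX proteins, and AGAACA, the half-site of steroid hormone response elements, were in neither window and in 4.72%, 31.02% and 18.97% of all promoters. ATTGTTCT, in which ACAAT and AGAACA overlap on the other strand, was found in the RefSeq entry of *Rhox5*, but that entry lies 50243 bases from the start of the quantified transcript and is not its promoter. The entry of *Gata1* held none of the 5 motifs. A match describes letters only. RefSeq promoters were matched for 4 of the 9 genes.

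The libraries held 12537852 to 20552702 estimated counts, and the gene values below are counts-per-million (CPM) after scaling between libraries by the trimmed mean of M-values (TMM). A negative log2 fold change means a higher level in the null than in wild type; adjusted p-values are from the quasi-likelihood test of edgeR with Benjamini-Hochberg adjustment over all 13630 tested genes. *Meioc* itself was at 466, 658, 662 and 718 CPM in wild-type replicates 1 to 4 and at 399, 299 and 412 CPM in null replicates 1 to 3. The groups did not overlap (log2 fold change 0.76 ± 0.16 (SE), edgeR adjusted p = 0.0207). The edgeR adjusted p was 0.0599, 0.0608 and 0.0520 without wild-type replicates 2, 3 and 4 and 0.0611 and 0.0636 without null replicates 2 and 3. It was 0.00261 without wild-type replicate 1 and 0.0284 without null replicate 1. The count covers the whole gene, so RNA from a disrupted allele is still counted. *Meioc*-null replicate 2 correlated least with the wild-type libraries across genes (lowest r = 0.954, against at least 0.977 between wild-type libraries). Wild-type replicate 1 correlated with null replicate 1 at r = 0.981, and with the other wild-type libraries at 0.977 to 0.981.

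Of the 9 genes, 8 did not pass the test, and *Gata4* passed it, with a level 1.26-fold higher in the null. Over all tested genes 11.1% were called, 7.77% higher and 3.33% lower in wild type. The share of all calls that were higher in wild type was 69.99% here, 47.5% with no scaling beyond library size, 17.4% on the log2(TPM + 1) scale and 89.7% with libraries scaled to Sertoli markers. The median log2 fold change of the 9 genes was -0.13, against -0.01 for all tested genes. A negative value was found for 6 of the 9 and for 6936 of all 13630 tested genes. An unadjusted p under 0.05 was reached by 3 of the 9, *Gata4*, *Gata1* and *Fshr*, and by 30.3% of all tested genes. The summed CPM of the 9 genes was 743 ± 29.6 in wild type (SD, n = 4) and 766 ± 34.2 in the null (SD, n = 3), and the ranges of 710 to 782 and 730 to 798 overlapped.

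**Figure D1:**
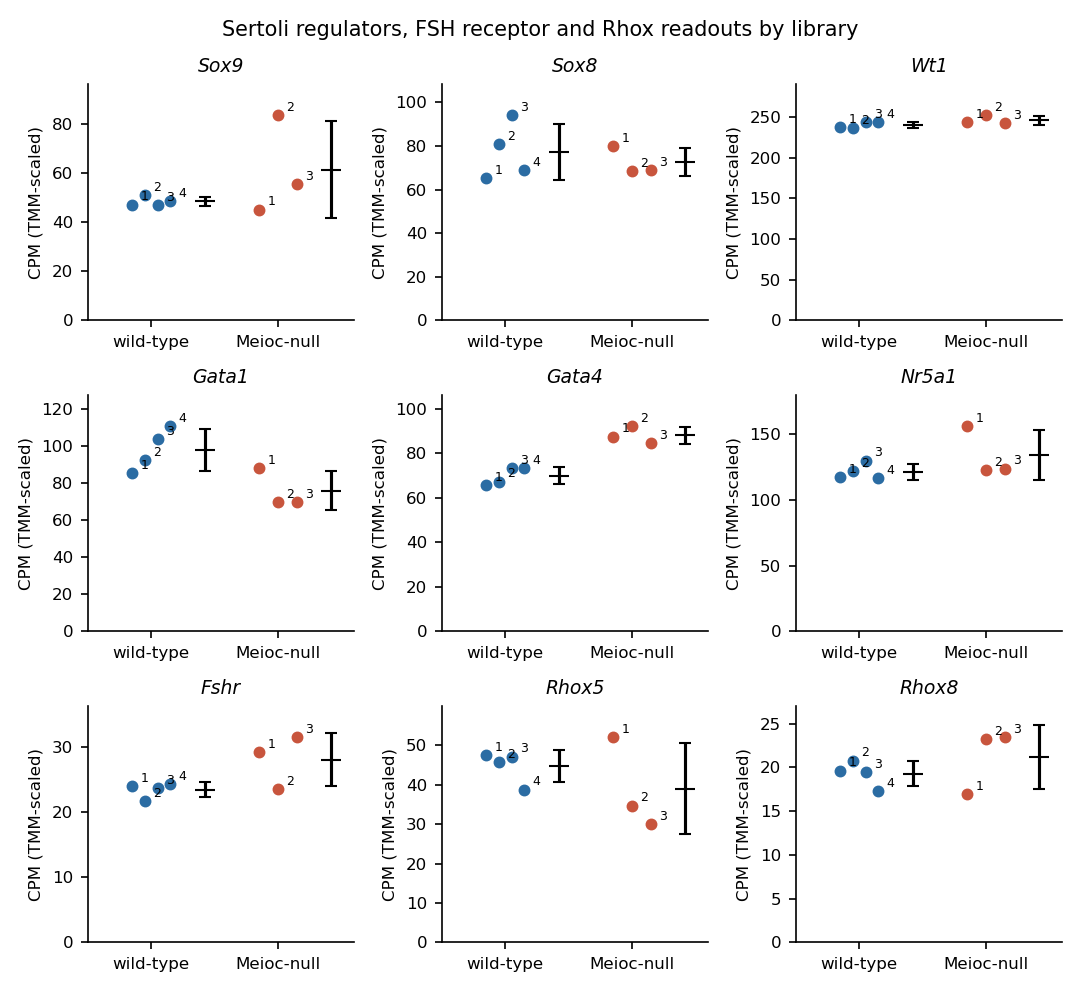
TMM-scaled CPM of each gene (vertical axis, from 0) in the 4 wild-type libraries (blue) and 3 Meioc-null libraries (red), numbered by replicate; the black mark and bar are the mean and SD of the group. Gata4 is the gene whose groups do not overlap (65.8 to 73.2 against 84.6 to 92.0 CPM), and single null libraries stand away from the other nulls for Sox9, Rhox5 and Nr5a1.

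*Gata4* (ENSMUSG00000021944.15, chr14:63198922-63271692, minus strand) encodes a zinc-finger factor of the gonadal somatic lineages, and it is also made by Leydig cells. It was at 65.8, 67.2, 73.2 and 73.1 CPM in wild-type replicates 1 to 4 and at 87.4, 92.0 and 84.6 CPM in null replicates 1 to 3. Every null library was above every wild-type library; 26.2% of all tested genes had groups that did not overlap in this way. The log2 fold change was -0.33 ± 0.08 (SE), with a 95% interval of -0.50 to -0.16 and an edgeR adjusted p of 0.0253. The direction held when each library was left out in turn, but the call did not: the edgeR adjusted p was 0.0318 without wild-type replicate 1 and 0.0357 without null replicate 1, and it was 0.0829, 0.0656 and 0.0515 without wild-type replicates 2, 3 and 4 and 0.0680 and 0.0705 without null replicates 2 and 3. Scaling the libraries to the summed counts of 15 other Sertoli markers gave -0.29 with an edgeR adjusted p of 0.0879. Scaling to the median of the same markers, chosen after seeing the data, gave -0.42 with an edgeR adjusted p of 0.0306. The sum leaned on 1 gene. In wild type *Clu* alone was 3414 to 3662 CPM, of sums of 7519 to 7761 CPM. In the null *Clu* was 3638 to 4381 CPM, of sums of 7220 to 8403 CPM.

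*Gata4* was counted on 3 transcripts. Gata4-203, which starts at a more downstream site, held 36.95% to 59.3% of the gene's estimated counts over the 7 libraries, Gata4-201 held 18.1% to 55.5%, and Gata4-202 held 0.02% to 29.1%. Gata4-201 and Gata4-202 start close to each other, and their split within a library varied most. The mean share of Gata4-203 was 47.0% ± 4.51 in wild type (SD, n = 4) and 47.5% ± 11.2 in the null (SD, n = 3).

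*Gata1* (ENSMUSG00000031162.14, chrX:7959260-7978071, minus strand), a related GATA factor of Sertoli and erythroid cells, had the highest positive value of the 9. It was at 85.5, 92.5, 104 and 111 CPM in wild-type replicates 1 to 4 and at 88.1, 69.9 and 69.9 CPM in null replicates 1 to 3. The groups overlapped through null replicate 1, which was above wild-type replicate 1. The log2 fold change was 0.37 ± 0.12 (SE; 95% interval 0.10 to 0.63), and the edgeR adjusted p of 0.0713 missed the threshold. It passed in edgeR without null replicate 1 (0.49, adjusted p = 0.0295) and without wild-type replicate 1 (0.43, adjusted p = 0.0375), in DESeq2 (0.36, adjusted p = 0.0378) and after scaling to the Sertoli markers (0.42, edgeR adjusted p = 0.0493). On the log2(TPM + 1) scale its value was 0.10, but there the median of all tested genes was -0.23, and *Gata1* lay 0.33 above that median.

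Erythroid markers moved in the same direction as *Gata1*. All 7 of the erythroid genes tested, of 8 listed, had positive log2 fold changes (median 0.57). Of the 7, 0 passed the test and 3 had an unadjusted p under 0.05. Among all 13630 tested genes 6694 had positive values, 11.1% were called and 30.3% had an unadjusted p under 0.05. *Klf1*, an erythroid transcription factor, had the largest value (1.76, edgeR adjusted p = 0.0511). The summed level of the list was 367 to 697 CPM in wild type and 275 to 506 CPM in the null. By library the sum was 697, 676, 490 and 367 CPM in wild-type replicates 1 to 4 and 506, 304 and 275 CPM in null replicates 1 to 3. The wild-type libraries with more of it had less *Gata1*, while the null library with the most of it had the most *Gata1*. Their part in the *Gata1* value was not tested. The files quantify Gata1-201 alone, which starts at the RefSeq site; the annotated Gata1-202, which starts 10161 bases upstream, was not quantified. Sertoli cells are known to use a distal *Gata1* first exon.

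*Sox9* (ENSMUSG00000000567.5, chr11:112782224-112787760, plus strand) was at 47.1, 51.0, 46.9 and 48.7 CPM in wild-type replicates 1 to 4 and at 45.1, 83.5 and 55.6 CPM in null replicates 1 to 3. The wild-type libraries were tight, with a coefficient of variation of 3.88%, and the nulls were spread, at 32.3%, with null replicate 2 above all others and null replicate 1 below all others. The log2 fold change of -0.34 ± 0.17 (SE; 95% interval -0.73 to 0.05) was the most negative of the 9 and did not pass (edgeR adjusted p = 0.219). It was -0.06 without null replicate 2 (edgeR adjusted p = 0.758) and -0.52 without null replicate 1 (edgeR adjusted p = 0.0455). The value thus turned on which null library was kept.

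*Sox8* (ENSMUSG00000024176.10, chr17:25565892-25570686, minus strand), which can act in place of *Sox9* in the differentiated testis, was at 65.2, 80.7, 94.0 and 69.1 CPM in wild-type replicates 1 to 4 and at 80.0, 68.5 and 69.0 CPM in null replicates 1 to 3. The groups overlapped throughout. Its log2 fold change was 0.09 (95% interval -0.20 to 0.38, edgeR adjusted p = 0.663), and it was -0.02 without wild-type replicate 3. On the log2(TPM + 1) scale it was -0.15, but there the median of all tested genes was -0.23. Sox8-201 held 98.9% to 99.3% of its counts in every library. *Sox8* overlaps an antisense gene, 2810468N07Rik, and *Nr5a1* overlaps Nr5a1os; the authors' quantification used strand.

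*Wt1*, the zinc-finger regulator whose forms are printed above, was the steadiest of the 9. It was at 238, 236, 243 and 244 CPM in wild-type replicates 1 to 4 and at 243, 252 and 242 CPM in null replicates 1 to 3. The coefficients of variation were 1.69% in wild type and 2.21% in the null. Its log2 fold change was -0.03 ± 0.06 (SE), and its 95% interval of -0.18 to 0.11 was the narrowest of the 9 (edgeR adjusted p = 0.758). It was 0.01 after scaling to the Sertoli markers. On the log2(TPM + 1) scale it was -0.29 and passed in limma (adjusted p = 0.0478), but there the median of all tested genes was -0.23, and *Wt1* lay -0.06 from that median.

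Among the *Wt1* transcripts, Wt1-201 held most of the estimated counts, 62.7% ± 3.75 in wild type (SD, n = 4) and 60.1% ± 4.22 in the null (SD, n = 3). The share without the 9 donor bases, which is that of Wt1-202, was 19.7%, 15.8%, 19.7% and 14.7% in wild-type replicates 1 to 4 and 12.9%, 23.6% and 28.1% in null replicates 1 to 3. The null range enclosed the wild-type range. The share with the cassette exon was 37.3% ± 3.75 in wild type and 39.9% ± 4.22 in the null. Wt1-202 is the only quantified form without the donor bases. It also differs from Wt1-201 by the cassette exon and from the remaining transcripts by its first exon. The share without the donor bases cannot be separated from these other differences. All these shares are model estimates of whole transcripts rather than counts of reads over each junction.

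*Nr5a1* (ENSMUSG00000026751.14, chr2:38692656-38714542, minus strand) encodes steroidogenic factor 1, made by Sertoli and Leydig cells. It was at 117, 122, 130 and 116 CPM in wild-type replicates 1 to 4 and at 156, 122 and 124 CPM in null replicates 1 to 3. Only null replicate 1 lay above the wild-type range. The difference was -0.14 on the log2 scale (95% interval -0.37 to 0.08, edgeR adjusted p = 0.358), and it was -0.02 without that library. The 8 Leydig markers summed to 317, 561, 585 and 297 CPM in wild-type replicates 1 to 4 and to 532, 342 and 651 CPM in null replicates 1 to 3. *Hsd17b3*, which makes testosterone, was the 1 called gene of those 8 (log2 fold change 0.99, edgeR adjusted p = 0.0367). Of all tested genes 7.77% were called higher in wild type. The median of the Leydig list was -0.04. The 2 quantified *Nr5a1* transcripts, which differ in their first exon, split the counts unevenly between libraries, with Nr5a1-201 at 19.0% to 61.6% in wild type and 25.4% to 78.1% in the null.

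*Fshr* (ENSMUSG00000032937.5, chr17:88984952-89200675, minus strand), the FSH receptor, is made in the testis by Sertoli cells. It was at 24.1, 21.7, 23.8 and 24.4 CPM in wild-type replicates 1 to 4 and at 29.2, 23.6 and 31.6 CPM in null replicates 1 to 3. Null replicates 1 and 3 were above every wild-type library, and null replicate 2 was within their range. The log2 fold change of -0.26 ± 0.11 (SE; 95% interval -0.52 to -0.01) had an unadjusted edgeR quasi-likelihood p of 0.0455 and an adjusted p of 0.157. It was -0.37 without null replicate 2 (edgeR adjusted p = 0.0667) and -0.17 without null replicate 3 (edgeR adjusted p = 0.409). The gene rested on 306 to 582 estimated counts per library.

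Downstream of the receptor, 16 of 16 listed genes for G proteins, adenylyl cyclases, protein kinase A, CREB factors, phosphodiesterases and arrestins were tested. Of these, 0 passed as higher and 1 as lower in wild type: *Arrb2*, a β-arrestin that desensitizes such receptors, at 50.3, 37.2, 41.5 and 36.3 CPM in wild-type replicates 1 to 4 and 53.7, 58.1 and 60.04 CPM in null replicates 1 to 3 (log2 fold change -0.47, edgeR adjusted p = 0.0329). *Arrb2* was 1 of 4 genes of the 16 whose groups did not overlap, a share near the 26.2% of all tested genes. Of all tested genes 7.77% were called higher and 3.33% lower in wild type. The median of the list was -0.16, and 12 of the 16 values were negative, as were 6936 of all 13630 tested genes. An unadjusted edgeR p under 0.05 was reached by 3 of the 16, against 30.3% of all tested genes.

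*Rhox5* (ENSMUSG00000095180.8, chrX:37804842-37808876, plus strand), a homeobox gene used as a readout of androgen action on Sertoli cells, was at 47.5, 45.8, 47.1 and 38.8 CPM in wild-type replicates 1 to 4 and at 52.1, 34.7 and 30.1 CPM in null replicates 1 to 3. Null replicate 1 was the highest of all libraries and the other two nulls were the lowest. The difference was 0.20 ± 0.17 on the log2 scale (SE; 95% interval -0.19 to 0.58, edgeR adjusted p = 0.464). Without null replicate 1 it was 0.46 and passed (edgeR adjusted p = 0.0359); without null replicate 3 it was 0.04 (edgeR adjusted p = 0.903). Without null replicate 2 it was 0.12. On the log2(TPM + 1) scale it was -0.02, but there the median of all tested genes was -0.23, and *Rhox5* lay 0.21 above that median. With the trend of fold change on transcript length removed the difference was 0.0021 (edgeR adjusted p = 0.993).

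*Rhox8* (ENSMUSG00000064137.6, chrX:37874778-37878944, minus strand), the other homeobox readout, did not follow the order of *Rhox5* over the nulls. It was at 19.6, 20.8, 19.5 and 17.3 CPM in wild-type replicates 1 to 4 and at 16.9, 23.2 and 23.4 CPM in null replicates 1 to 3, so null replicate 1, the highest library for *Rhox5*, was the lowest for *Rhox8*. Its log2 fold change was -0.13 (95% interval -0.44 to 0.17, edgeR adjusted p = 0.527). This was -0.28, -0.07 and -0.06 without null replicates 1, 2 and 3 and -0.24 with the length trend removed. On the log2(TPM + 1) scale it was -0.35, where the median of all tested genes was -0.23. *Rhox8* passed under none of these. It rested on 249 to 432 estimated counts per library. Of the 31-base words in its transcript, 6.32% also occur in another gene, against at most 0.853% for each of the other 8 genes.

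Of the 8 androgen signalling genes tested of 8 listed, 0 passed the test, with a median log2 fold change of 0.02. *Ncoa3*, a nuclear receptor coactivator, had the largest value (0.62, edgeR adjusted p = 0.0509).

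The 4 other androgen-responsive Sertoli genes (*Eppin*, *Tubb3*, *Drd4* and *Cldn3*) summed to 651, 662, 733 and 702 CPM in wild-type replicates 1 to 4 and to 731, 469 and 446 CPM in null replicates 1 to 3. Null replicate 1 was within the wild-type range and the other nulls were below it. *Eppin*, a protease inhibitor of the epididymis and testis, was the 1 of the 4 that passed, as higher in wild type. Of all tested genes 7.77% were called higher. *Eppin* was at 137, 160, 151 and 159 CPM in wild-type replicates 1 to 4 and at 109, 77.9 and 113 CPM in null replicates 1 to 3 (log2 fold change 0.60, edgeR adjusted p = 0.0224). *Tubb3* made up most of the sum, at 427, 433, 498 and 500.2 CPM in wild-type replicates 1 to 4 and 514, 307 and 278 CPM in null replicates 1 to 3, and did not pass (0.34, edgeR adjusted p = 0.251). The values of *Drd4* (-0.21, edgeR adjusted p = 0.626) and *Cldn3* (-0.70, edgeR adjusted p = 0.139) had the opposite sign, so the 4 genes did not share a direction. *Drd4* was at 41.4 to 82.8 CPM in wild type and 52.7 to 103 CPM in the null, and *Cldn3* at 1.53 to 3.78 and 3.20 to 4.77 CPM.

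The rest of the *Rhox* cluster was listed as 30 genes, of which 17 were tested, 6 were at or under 3 counts in every library and 3 of those were at 0 in all. Passing as higher in wild type were 2 of the 17, *Rhox13* and *Rhox11*, and 0 passed as lower, against 7.77% and 3.33% of all tested genes. *Rhox13*, which is made by germ cells, was at 50.1, 47.7, 43.7 and 50.3 CPM in wild-type replicates 1 to 4 and at 32.9, 20.8 and 26.1 CPM in null replicates 1 to 3 (log2 fold change 0.85, edgeR adjusted p = 0.0125). *Rhox11* had 3, 12, 13 and 27 estimated counts in the wild-type libraries and 1, 1 and 0 in the nulls (edgeR adjusted p = 0.0192), too few for a fold change. The *Rhox2*, *Rhox3* and *Rhox4* genes are near-identical copies, and estimated counts among them are uncertain. Neither *Rhox5* nor *Rhox8* passed.

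**Figure D2:**
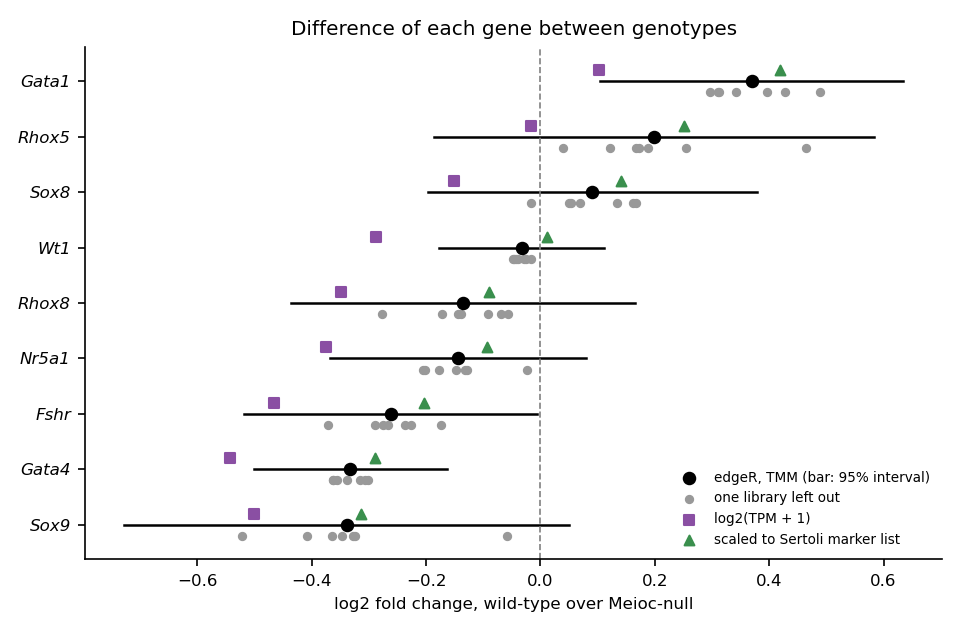
Log2 fold change of each gene, wild type over Meioc null (horizontal axis), in edgeR with TMM scaling (black, with 95% interval), with each library left out in turn (grey), on the log2(TPM + 1) scale (purple squares) and after scaling to the Sertoli marker list (green triangles). The values of Gata4, Sox9, Nr5a1, Fshr and Rhox8 stay below 0 and those of Gata1 above 0 under all of these. Sox9 ranges from -0.52 to -0.06 with a library left out. The log2(TPM + 1) values all sit to the left of the black points.

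Per transcript length, the 9 genes spanned levels from 19.95 to 157 transcripts-per-million (TPM), as means over 7 libraries. In descending order of mean level they were *Wt1* (157 ± 20.7 TPM), *Rhox5* (135 ± 26.5 TPM), *Gata1* (62.1 ± 7.36 TPM), *Rhox8* (47.7 ± 10.2 TPM), *Nr5a1* (47.3 ± 8.31 TPM), *Sox8* (35.3 ± 4.30 TPM), *Gata4* (30.8 ± 6.77 TPM), *Fshr* (21.0 ± 4.12 TPM) and *Sox9* (19.95 ± 7.31 TPM), each with its SD over the 7 libraries. *Rhox5* and *Gata1* were the only neighbours in that order whose libraries did not overlap. *Rhox8* was above *Nr5a1* in 4 of 7 libraries, and *Nr5a1* above *Sox8*, and *Gata4* above *Fshr*, in 7 of 7. *Wt1* lay at the 93.8th percentile of the mean TPM of all tested genes and *Sox9* at the 52.0th.

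**Figure D3:**
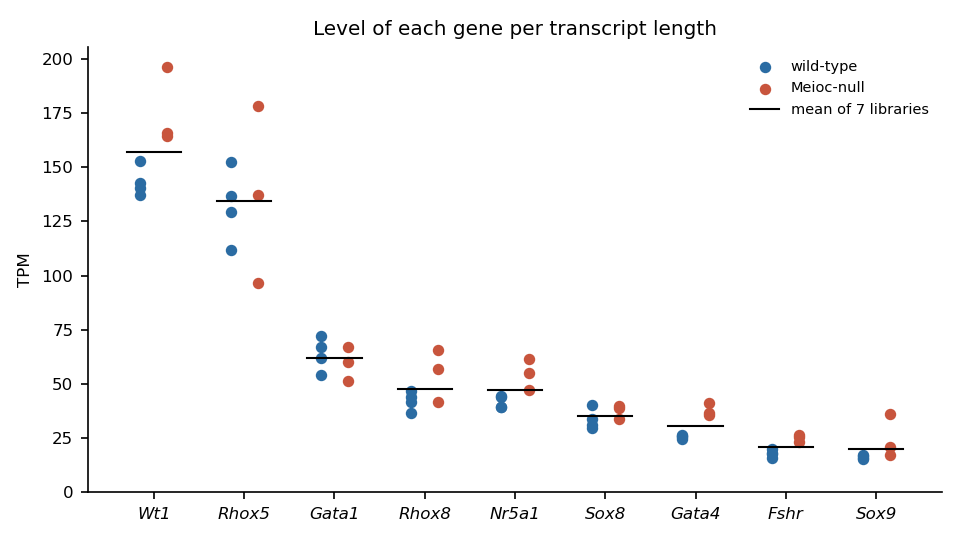
Level of each gene in TPM (vertical axis, from 0) in each wild-type (blue) and Meioc-null (red) library, with the mean of all 7 as a line, ordered by that mean. Wt1 and Rhox5 stand above the other 7 genes, and the 96.5 to 178 TPM of Rhox5 do not reach down to the 72.1 TPM that is the highest value of Gata1.

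The 15 other Sertoli markers check the cell type against the tissue. All 15 of 15 were tested and summed to 7519 to 7761 CPM in wild type and 7220 to 8403 CPM in the null, so the Sertoli signal was present in every library. The list's median log2 fold change was 0.01; 0 genes passed as higher in wild type and 1 as lower. This was *Kitl*, the ligand for the KIT receptor of germ cells, at 189, 187, 163 and 162 CPM in wild-type replicates 1 to 4 and at 258, 295 and 302 CPM in null replicates 1 to 3 (log2 fold change -0.70, edgeR adjusted p = 0.00530). Values in the list ran from -0.70 to 0.53, with 8 positive and 7 negative; 6 of 15 had an unadjusted p under 0.05 and 5 of 15 did not overlap, against 30.3% and 26.2% of all tested genes. *Trf*, the transferrin gene, had the highest positive value (0.53, edgeR adjusted p = 0.0527). The 1 call in 15 and the 1 in the 9 genes stand beside 11.1% called over all tested genes.

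Genes of the fetal pathways around the 9 regulators were read from 2 further lists. Of 17 testis-determination genes 13 were tested, with 0 called in either direction and a median of -0.16; *Six4*, a homeobox gene upstream of *Nr5a1* and *Sry*, had the largest value (-0.91, edgeR adjusted p = 0.0546), with nulls at 14.0, 34.6 and 27.1 CPM and wild-type libraries at 11.98 to 16.9 CPM. An unadjusted p under 0.05 was reached by 4 of the 13, against 30.3% of all tested genes. Groups did not overlap for 2 of the 13, against 26.2% of all tested genes. Of 7 ovarian-fate genes 3 were tested, 0 were called and the median was -0.43. Beside the same shares of 30.3% and 26.2%, 2 of the 3 had an unadjusted p under 0.05 and 2 did not overlap. *Nr5a2*, a granulosa cell relative of *Nr5a1*, had the largest value among them (-0.60, edgeR adjusted p = 0.0517). *Foxl2*, the granulosa cell factor opposed to *Sox9*, had 0 counts in 6 libraries and 2 counts in null replicate 1. A count of 0 allows up to 3 counts, or 0.146 to 0.240 CPM over the 7 libraries before TMM scaling.

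The other cell types of the testis were followed by their own lists. Of the 10 germ cell markers, 5 were called higher and 2 lower in wild type, against 7.77% and 3.33% of all tested genes. The summed level of the list was 2434 to 2768 CPM in wild type and 1733 to 1872 CPM in the null. *Tex101* (1.27, edgeR adjusted p = 0.00419), *Sycp3* (1.09, edgeR adjusted p = 0.0118), *Zbtb16* (-0.86, edgeR adjusted p = 0.0213) and *Nanos3* (-0.67, edgeR adjusted p = 0.0372) had the largest log2 fold changes of these calls. *Zbtb16* was at 84.6, 161 and 105 CPM in null replicates 1 to 3 and 60.3 to 68.5 CPM in wild type, so null replicate 2 was the highest. The part of these germ cell differences in the values of the 9 genes was not tested; the values after scaling to Sertoli markers are given above. The 7 peritubular myoid markers had 1 call, *Des* (-0.37, edgeR adjusted p = 0.0493), with sums of 560 to 643 CPM in wild type and 534 to 625 CPM in the null. The endothelial list (5 of 7 tested) and the macrophage list (7 of 7 tested) had 0 calls each, with sums of 77.1 to 94.8 against 82.5 to 101 CPM and of 291 to 308 against 263 to 326 CPM, and their largest values were *Cdh5* (-0.30, edgeR adjusted p = 0.121) and *Csf1r* (-0.24, edgeR adjusted p = 0.118).

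**Figure D4:**
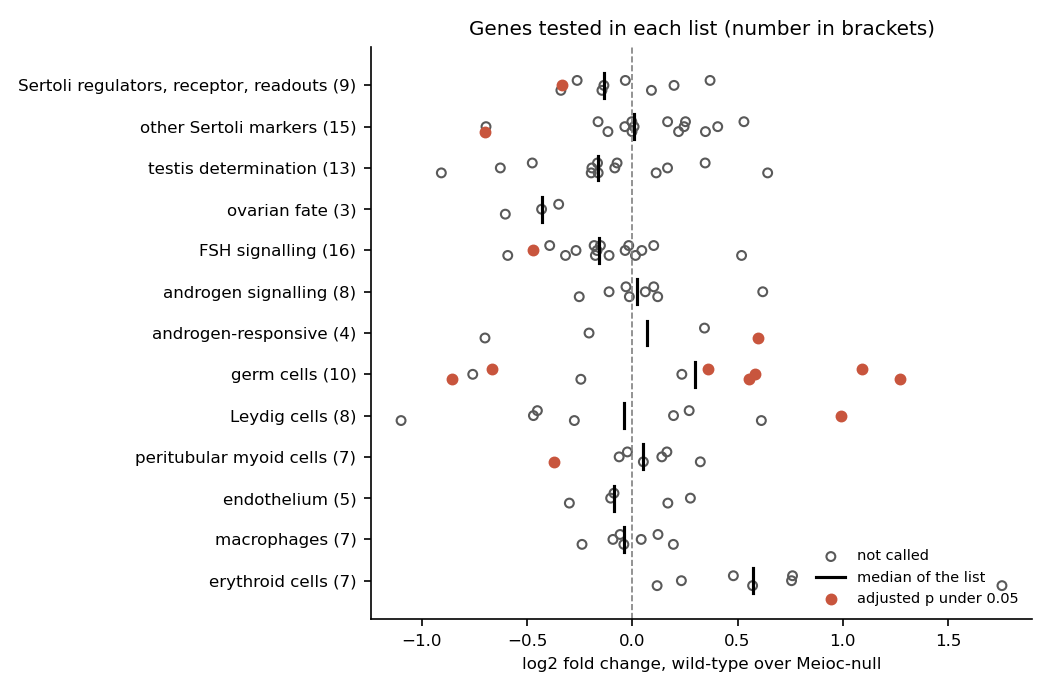
Log2 fold change, wild type over Meioc null (horizontal axis), of each tested gene in the 9 genes and in 12 other lists, with the number tested in brackets, called genes filled (edgeR adjusted p under 0.05) and a line at the median of each list. The 9 genes lie between -0.34 and 0.37 around a median of -0.13, while germ cell markers reach from -0.86 to 1.27 and all 7 erythroid values lie above 0.

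The genes whose log2 CPM followed each of the 9 most closely over the 7 libraries were sought among the 11653 tested genes that averaged 5 CPM or more, as a description over libraries that share depth, scaling and genotype groups. For *Gata4* they were *Jund* (Pearson r = 0.996), *Fam241b* (0.985) and *Lin28a* (0.981), and for *Gata1* they were *Bik* (0.993), *Nkiras2* (0.991) and *Sfxn5* (0.990). For *Sox9* they were *Gm21897* (0.987), *Tent4a* (0.986) and *Ninl* (0.984), for *Sox8* *Nol12* (0.974), *Marcks* (0.969) and *Stab1* (0.945), and for *Wt1* *Crtc3* (0.985), *Neo1* (0.981) and *Homer1* (0.974). For *Nr5a1* they were *Ankrd54* (0.962), *Pcyox1* (0.950) and *Hist1h3f* (0.946), and for *Fshr* *Rab7* (0.977), *Tmem165* (0.974) and *Bin1* (0.972). *Rhox5* was followed by *Atp5o* (0.968), *Kctd5* (0.965) and *Polr2l* (0.963), and *Rhox8* by *Atp9b* (0.985), *Sin3a* (0.979) and *Supt7l* (0.977). None of them was another of the 9 genes or a Sertoli marker of the list. So few of the 11653 genes were kept for each that this absence carries no information on Sertoli genes as a set. Whether Sertoli genes varied together over the libraries was not tested.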

How the data were processed

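RNA was sequenced from 4 wild-type and 3 *Meioc*-null testis samples, grouped by the genotype in their labels, after ribosomal RNA depletion with a stranded kit. The authors trimmed reads with cutadapt 1.8 and ran kallisto 0.44.0, with bias correction and strand, on GENCODE Basic vM15. The deposited tables hold estimated counts per protein-coding transcript, not normalized between libraries, and TPM, which the authors renormalized over protein-coding transcripts.

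Transcripts were matched by Ensembl identifier to the GRCm38 annotation (119 of 43139 unmatched, at most 0.282% of counts, left out) and summed by gene. Estimated counts were rounded, genes with TPM of at least 1 in at least 3 libraries kept (13630), scaled by TMM and tested with edgeR 4.0.16 in R 4.3.3 (quasi-likelihood test, no covariates, Benjamini-Hochberg adjustment, threshold 0.05). Standard errors came from the fold change and F statistic. The fits were tested on simulated data. DESeq2 1.42.0 and limma 3.58.1 on log2(TPM + 1) or log2(TPM + 0.1), other scalings and filters, a length trend, a replicate block and each library left out were alternatives; scaling to the median of the Sertoli list was chosen after seeing the data.

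The 9 genes and the lists were chosen with earlier results of these data known. Named are the 9, *Meioc*, called genes of each list (at most the 4 with the largest change; the largest value where none was called) and the 3 genes most correlated with each of the 9. *Foxl2*, *Tubb3*, *Drd4*, *Cldn3*, *Trf* and *Clu* fall outside that rule and were named after their values were seen. A listed gene is not reported here. Depth was 12537852 to 20552702 estimated counts per library. Spike-ins were not used here.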

Additional observations from a re-analysis of the deposited data

How the results depend on the processing

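The 9 genes were refitted under 10 other settings and with each of 7 libraries left out; scaling to the median of the Sertoli markers was added after seeing the data and changed no call. The numbers of calls over all genes were 1513 here, 2331 by DESeq2, 2528 and 2510 on log2(TPM + 1) and log2(TPM + 0.1), and 955 under the added scaling. With a library left out they were 2177, 305, 278 and 548 without wild-type replicates 1 to 4. They were 2092, 371 and 129 without null replicates 1 to 3.

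DESeq2 called 2 of the 9, adding *Gata1* (0.36), and 17.1% of all tested genes. On log2(TPM + 1), limma called 4 of the 9: *Gata4*, *Wt1* (-0.29), *Nr5a1* (-0.38) and *Fshr* (-0.47), and *Sox8* (-0.15) and *Rhox5* (-0.016) turned negative. On log2(TPM + 0.1) the same values were -0.29, -0.38, -0.49, -0.15 and -0.016, with 4 called. On these scales limma called 18.5% and 18.4% of all tested genes, and the median of all tested genes was -0.23 and -0.25. After scaling to the Sertoli marker sum, *Gata4* lost its call (-0.29), *Gata1* gained it (0.42) and *Wt1* turned positive (0.012). Removing the length trend left *Rhox5* at 0.0021 and *Rhox8* at -0.24. The cause of these changes was not tested.

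With a library left out, 0 to 4 of the 9 were called. The log2 fold changes then ranged from -0.52 to -0.058 for *Sox9*, -0.017 to 0.17 for *Sox8* (negative without wild-type replicate 3), -0.05 to -0.02 for *Wt1*, 0.30 to 0.49 for *Gata1*, -0.36 to -0.30 for *Gata4*, -0.21 to -0.02 for *Nr5a1*, -0.37 to -0.17 for *Fshr*, 0.039 to 0.46 for *Rhox5* and -0.28 to -0.06 for *Rhox8*. *Meioc* ranged from 0.63 to 0.88, with an edgeR adjusted p of 0.00261 to 0.0636. The 4 called were *Sox9*, *Gata1*, *Gata4* and *Rhox5*, without null replicate 1, where 15.5% of all tested genes were called. Without wild-type replicate 1, 2 of the 9 and 16.1% of all tested genes were called. Without any other library, 0 of the 9 and 0.957% to 4.04% of all tested genes were called.

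Same-numbered wild-type and null libraries are different pups, and their deviations from the group means did not go together (r = -0.01, -0.09 and -0.17), so the numbers do not pair the samples. With the replicate block, 109 genes and 0 of the 9 were called by edgeR; *Gata4* was at -0.36 (adjusted p = 0.157), *Meioc* at 0.68 (adjusted p = 0.0997). *Rhox8* (249 to 432 estimated counts per library) and *Fshr* (306 to 582) had the least depth of the 9.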
